A study of Mus musculus with 15 samples.

Results

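The genes described here encode parts of the contractile apparatus of smooth muscle: Myl9, Mylk, Tagln, Cnn1, Cnn2, Tpm1, Tpm2, Cald1, Lmod1 and Smtn. They were taken as a named list of symbols, and each was found under 1 Ensembl ID, so that 10 of the 46603 gene IDs counted in every library are members. All 10 passed the filter on low counts, which left 15296 genes for testing. The RNA came from cultures of mouse embryonic fibroblasts, labelled as BALB/c cells of 10.5 day old embryos, that differed in the beta-actin gene Actb. KO cells lack a working copy, heterozygous (HET) cells keep 1 copy and wild-type (WT) cells keep both. All groups shared the same treatment: confluent cells on Matrigel were moved at day 0 to osteogenic medium with dexamethasone and forskolin, which is meant to turn fibroblasts into osteoblasts. The 15 libraries form 5 groups of 3, namely KO, HET and WT at day 14 and KO and WT at day 4. The series asks how the expression programmes of these cells differ among the genotypes. The labels name no embryo, clone or culture behind a genotype, so p-values measure only the spread between these libraries, and the origin of the cells and the copies of Actb cannot be told apart.

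In smooth muscle, myosin light chain kinase (Mylk), switched on by calcium and calmodulin, phosphorylates the regulatory light chain (Myl9), and the myosin then pulls on actin filaments. Tropomyosins (Tpm1, Tpm2) lie along those filaments, and caldesmon (Cald1) and calponin (Cnn1) bind them and restrain the myosin. Leiomodin (Lmod1) starts new filaments, and transgelin (Tagln) and smoothelin (Smtn) are actin-binding proteins used as markers of the cell type. Many of these genes carry CArG boxes, the sites bound by serum response factor (Srf) with myocardin (Myocd) or the MRTF cofactors, which are themselves held back by free actin monomers. Fibroblasts also use several of the genes, often as other isoforms, and counts per gene do not separate isoforms.

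A CArG box was looked for in the RefSeq promoter windows of GRCm38.p6, over the 250 bases before each start. The box is the same on both strands. Of the 10 genes, 9 had a window and Cald1 had 2, which made 10 windows. Tagln had no window and was not searched. A full box stood in 2 of them, those of Myl9 and Cnn2, against 1.47% of all 32851 windows. These 2 stretches are shown because the values of both genes are described at length below; each has 60 bases with the box in capitals, at 161 to 152 bases before the start in Myl9 (chr2:156775278-156775337, plus strand) and at 56 to 47 bases in Cnn2 (chr10:79988519-79988578, plus strand).
Myl9: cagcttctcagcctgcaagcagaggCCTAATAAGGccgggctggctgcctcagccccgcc
Cnn2: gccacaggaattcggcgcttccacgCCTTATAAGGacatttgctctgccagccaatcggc
The motif CATTCC, searched on both strands and known as the core of the site of TEAD factors, stood in 5 member windows, of Mylk, Tpm1, Cald1, Lmod1 and Smtn, against 12.6% of all windows. A match describes the letters only, and no match says nothing of sites outside the window.

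Reads counted in genes ran, in M per library, from 21.5 to 24.8 in KO, 19.9 to 22.2 in HET and 20.02 to 20.42 in WT at day 14, and from 30.7 to 35.7 in KO and 25.7 to 47.5 in WT at day 4. Levels are CPM, counts scaled to library size by TMM, and changes are log2 values ± SE. Actb followed the labels, at 43.0 to 46.5 CPM in KO, 1437 to 1642 in HET and 2947 to 3067 in WT at day 14, and at 129.9 to 138.6 in KO and 1164 to 1193 in WT at day 4. HET replicate 2 stood apart from the other HET libraries, since the chi-square of its counts over degrees of freedom was 50.1 and 50.4 with them, and 2.89 between replicates 1 and 3. Among WT libraries of day 14 it was 5.02 to 18.6. Mitochondrial genes took 1.08% to 1.12% of counts in KO and 0.484% to 0.542% in WT at day 14, and 0.836% to 0.845% in KO and 0.415% to 0.421% in WT at day 4; their part in the results was not tested. The names "smooth muscle" and "osteoblast" rest on few defining markers here. No group held more than 16 counts of the smooth muscle myosin heavy chain Myh11. Of 7 osteoblast genes, Sp7, Bglap and Ibsp reached only 4, 25 and 3 counts in the group where each was highest. Spp1 averaged 1461 to 5068 CPM over the groups, Col1a1 107.1 to 1610, Runx2 20.6 to 71.2 and Alpl 3.39 to 127.7. Against WT, Alpl in KO stood at a log2 change of -1.998 at day 14 and -2.70 at day 4 (largest edgeR adjusted p = 3.51e-12). Other osteoblast genes went the other way, with Runx2 higher by 0.63 ± 0.08 and Spp1 by 0.25 ± 0.09 at day 14 (largest edgeR adjusted p = 0.0199). Of the 4 tested, 2 were higher and 1 lower at day 14, against 30.9% and 32.2% of all tested genes. At day 4, 2 were higher and 2 lower, against 35.7% and 33.8%. Runx2 was then lower in KO, like Alpl, at 50.85 CPM against 71.2 CPM in WT.

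At day 4, the contractile genes were far higher in KO than in WT cells, and 9 of 10 passed the test in that direction. The light chain Myl9, the calponin Cnn1 and leiomodin Lmod1 were nearly absent from WT libraries and averaged 479.3, 109.9 and 31.15 CPM in KO libraries. Caldesmon alone was lower. Among all tested genes, 69.5% passed at day 4, 35.7% higher and 33.8% lower in KO, and the median log2 change was 0.03, against a median of 3.38 over the 10 members. By 2-fold or more, 8 members were higher and none lower, against 16.5% and 11.9% of all tested genes (edgeR's quasi-likelihood test, adjusted p under 0.05). In bulk RNA, more cells that express a gene and more RNA per cell cannot be told apart.

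Both myosin genes were higher in KO. Myl9, the regulatory light chain on which smooth muscle contraction turns (ENSMUSG00000067818, GRCm38 chromosome 2, 156775420 to 156781658, plus strand), stood at 477, 487.6 and 473.4 CPM in the KO libraries of day 4, against 0.320, 0.130 and 0.0421 CPM in the WT libraries. The groups lie far apart, and the WT values rest on 14, 5 and 1 counts. The log2 change was 11.28 ± 0.34 (edgeR adjusted p = 1.05e-16), and 12.20 without WT replicate 1. Mylk, the kinase that phosphorylates this light chain (ENSMUSG00000022836, chromosome 16, 34745210 to 35002420, plus strand), stood at 52.2, 56.8 and 56.9 CPM in KO, against 7.87, 7.35 and 5.69 CPM in WT. Its change was 2.97 ± 0.10 (edgeR adjusted p = 7.52e-13), again without overlap of the groups.

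Tagln, Cnn1 and Cnn2, which share a calponin homology domain, were also higher in KO. Tagln (ENSMUSG00000032085, chromosome 9, 45929619 to 45936058, minus strand) stood at 95.7, 95.3 and 99.5 CPM in KO at day 4, against 1.81, 1.74 and 1.60 CPM in WT, a log2 change of 5.80 ± 0.12 (edgeR adjusted p = 1.23e-15). An antisense transcript, Gm48529, overlaps 62.4% of the exonic bases of Tagln in GENCODE M21, and with a kit that keeps no strand the reads of both cannot be told apart. Cnn1, the calponin of differentiated smooth muscle (ENSMUSG00000001349, chromosome 9, 22099216 to 22109630, plus strand), stood at 112.2, 109 and 108.5 CPM in KO, against 0.252, 0.545 and 0.169 CPM in WT. Its change was 8.32 ± 0.37 (edgeR adjusted p = 9.62e-14), or 8.92 without WT replicate 2, and each WT library held 4 to 21 counts. Cnn2, a calponin also made outside muscle (ENSMUSG00000004665, chromosome 10, 79988584 to 79996062, plus strand), stood at 307.1, 309.3 and 301.9 CPM in KO, against 48.2, 47.48 and 47.99 CPM in WT, where it was already well expressed. It rose by 2.68 ± 0.07 (edgeR adjusted p = 7.67e-14).

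Among the thin filament genes the tropomyosins were higher and caldesmon was lower. Tpm2 (ENSMUSG00000028464, chromosome 4, 43514711 to 43523765, minus strand) stood at 446.3, 433 and 442 CPM in KO at day 4, against 32.0, 32.8 and 30.2 CPM in WT, a change of 3.80 ± 0.13 (edgeR adjusted p = 1.3e-12). Tpm1 (ENSMUSG00000032366, chromosome 9, 67022590 to 67049406, minus strand) averaged 506.2 ± 3.15 CPM in KO and 225.6 ± 2.54 CPM in WT (SD, n = 3 each), and it rose by 1.17 ± 0.05. Cald1 (ENSMUSG00000029761, chromosome 6, 34598500 to 34775473, plus strand) averaged 771.1 ± 3.95 CPM in KO and 902.8 ± 19.8 CPM in WT, lower by -0.23 ± 0.04 (edgeR adjusted p = 2.4e-04). All KO values of Cald1 lay below all WT values, although the difference was the smallest of the 10.

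Lmod1, the leiomodin of smooth muscle (ENSMUSG00000048096, chromosome 1, 135324807 to 135368065, plus strand), had 1057, 934 and 1152 counts in KO at day 4, against 0, 2 and 0 counts in WT. KO cells thus held 1650 times the WT level, with a 95% interval of 457 to 13700 that covers counting error only (edgeR adjusted p = 8.75e-13). Both WT counts were in replicate 2, and without it KO was at least 702-fold higher, taking 3 counts over the remaining WT libraries as the floor. Smtn (ENSMUSG00000020439, chromosome 11, 3517523 to 3540612, minus strand) changed little, with 31.9, 30.6 and 31.8 CPM in KO against 23.5, 26.2 and 26.9 CPM in WT. Its change was 0.30 ± 0.07 (edgeR adjusted p = 7.6e-04). Smoothelin and leiomodin are both counted as late markers of smooth muscle, and their changes at day 4 were of very different size.

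**Figure D1:**
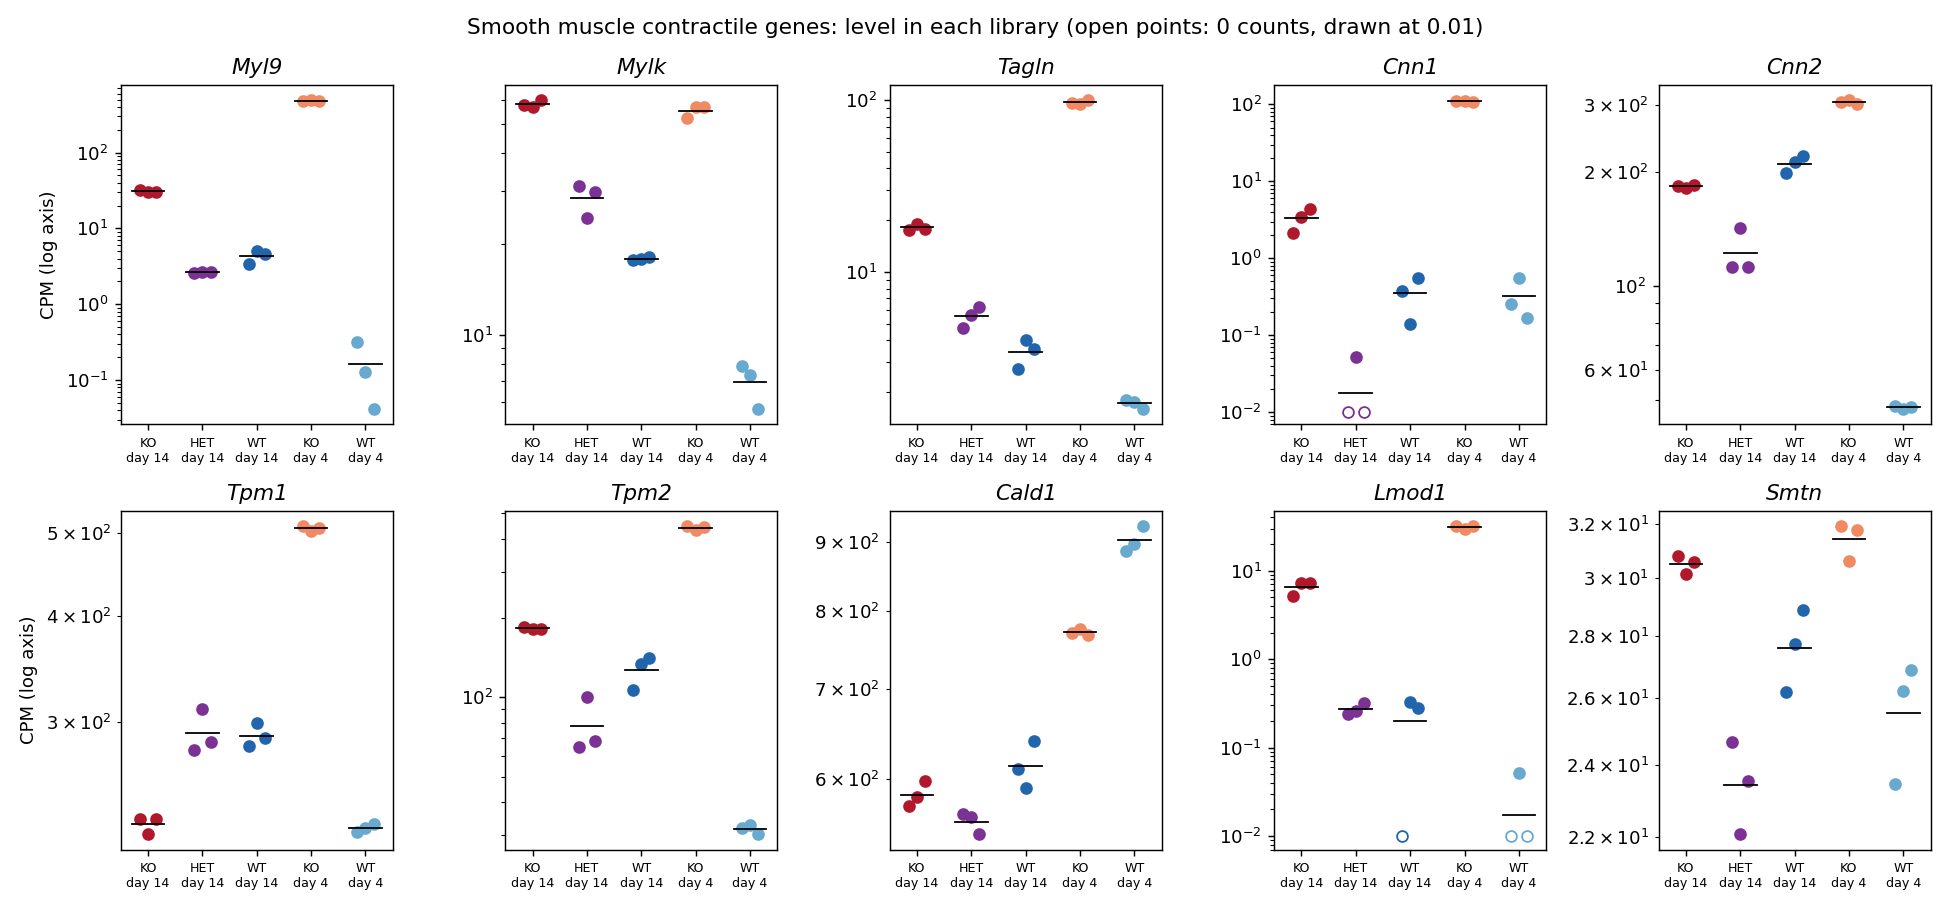
Level of each gene in each library, in CPM on a log axis; points are libraries, bars are means of 3, and open points are libraries with 0 counts. At day 4 the KO libraries of Myl9 sit between 473.4 and 487.6 CPM and those of WT at or below 0.320, while KO and WT of Smtn lie within 23.5 to 31.9.

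At day 14, 6 of the 10 genes were higher in KO than in WT and 2 were lower, in smaller steps than at day 4. Myl9, Tagln, Mylk, Cnn1 and Lmod1 were again higher by more than 2-fold, and Tpm2 was modestly higher. The widely expressed members Tpm1 and Cnn2 were slightly lower, and Cald1 and Smtn did not pass the test. Of all tested genes, 63.1% passed, 30.9% higher and 32.2% lower, with a median log2 change of -0.02 against 1.11 over the members. By 2-fold or more, 5 members were higher and none lower, against 9.56% and 11.6% of all tested genes (edgeR's quasi-likelihood test, adjusted p under 0.05).

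Myl9 stood at 31.7, 30.6 and 29.9 CPM in KO at day 14, against 3.36, 4.96 and 4.58 CPM in WT. Mylk stood at 57.8, 56.9 and 59.8 CPM in KO, against 17.7, 17.8 and 18.1 CPM in WT. Both were higher in every KO library, Myl9 by 2.83 ± 0.13 and Mylk by 1.70 ± 0.10 on the log2 scale (largest edgeR adjusted p = 7.15e-10). Tagln stood at 17.6, 19.0 and 17.8 CPM in KO, against 2.71, 3.99 and 3.55 CPM in WT, a change of 2.41 ± 0.12 (edgeR adjusted p = 7.29e-11). Cnn1 had become a low gene in KO too, at 2.11, 3.48 and 4.31 CPM, against 0.373, 0.139 and 0.561 CPM in WT. It was still higher, by 3.20 ± 0.47 (edgeR adjusted p = 2.37e-06), with 50 to 109 counts per KO library and 3 to 12 per WT library. Lmod1 stood at 5.16, 7.23 and 7.35 CPM in KO, against 0, 0.325 and 0.280 CPM in WT, a change of 4.99 ± 0.53 (edgeR adjusted p = 5.91e-09) that rests on 13 counts over the WT group.

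The abundant filament genes were close together at day 14. Tpm2 stood at 185, 181 and 181.4 CPM in KO, against 106.3, 134.2 and 140.5 CPM in WT, higher by 0.52 ± 0.13 (edgeR adjusted p = 0.00202). Tpm1 averaged 227.9 ± 5.33 CPM in KO and 289.4 ± 9.50 CPM in WT (SD, n = 3 each), lower by -0.34 ± 0.05 (edgeR adjusted p = 1.51e-05). Cnn2 averaged 183.4 ± 1.75 CPM in KO and 210.4 ± 10.7 CPM in WT, a change of -0.20 ± 0.07 (edgeR adjusted p = 0.0274). That call was lost without any 1 of WT replicates 2 and 3 and KO replicates 1, 2 and 3, with an edgeR adjusted p of up to 0.0995. Cald1, at 584.4 ± 12.8 CPM in KO and 614 ± 24.7 CPM in WT, was at -0.07 ± 0.04 (edgeR adjusted p = 0.172). Smtn, at 30.5 ± 0.332 CPM in KO and 27.6 ± 1.35 CPM in WT, was at 0.14 ± 0.07 (edgeR adjusted p = 0.0803).

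**Figure D2:**
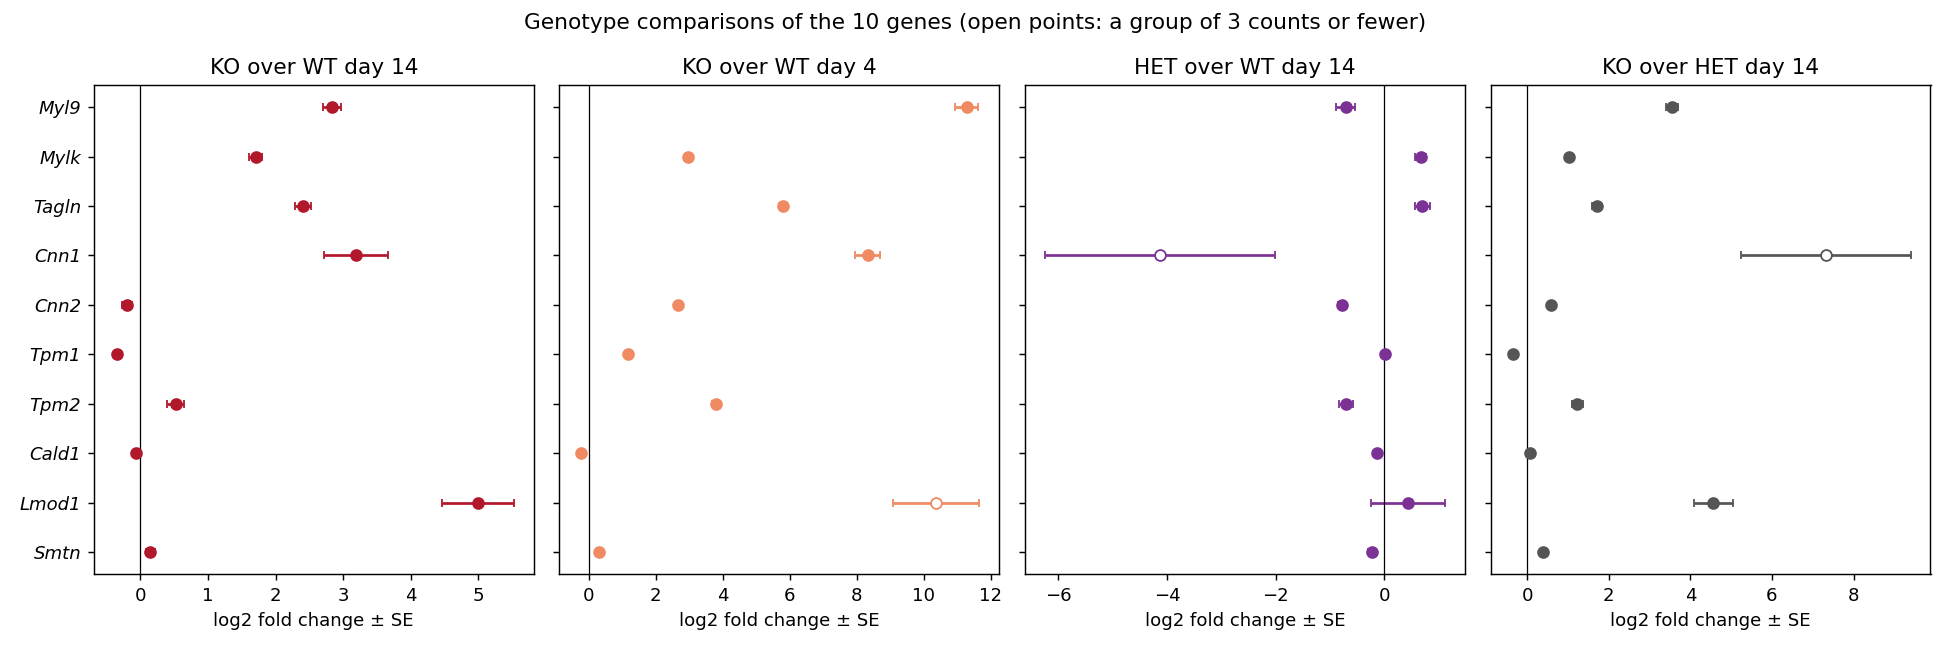
log2 fold change ± SE of each gene in the 4 comparisons of genotypes; the gene on the vertical axis, open points where 1 of the groups had 3 counts or fewer. In KO over WT the points of Myl9, Mylk, Tagln, Cnn1 and Lmod1 lie right of 1 at both days, from 1.70 to 4.99 at day 14 and from 2.97 to 11.28 at day 4.

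The log2 effect of the knockout was lower at day 14 than at day 4 for 8 of the 10 genes, by the test of the difference itself (an interaction of genotype and day). It passed in 64.7% of all tested genes, being negative in 34% and positive in 30.7%. For the same 8 members it was 2-fold or more, against 19.2% negative and 13.8% positive by that much among all tested genes. For Myl9 it was -8.45 ± 0.37, for Tagln -3.40 ± 0.17, for Cnn1 -5.13 ± 0.60 and for Mylk -1.26 ± 0.14 (largest edgeR adjusted p = 1.44e-05). For Tpm2 it was -3.27 ± 0.18, for Cnn2 -2.87 ± 0.10 and for Tpm1 -1.51 ± 0.07 (largest edgeR adjusted p = 3.3e-10), and the last 2 turned from higher to lower in KO. For Lmod1 it was -5.38 ± 1.39 (edgeR adjusted p = 2.46e-04), a value that depends on the 2 counts of WT at day 4. Cald1 differed the other way, by 0.16 ± 0.06 (edgeR adjusted p = 0.0375), and Smtn at -0.16 ± 0.10 did not pass (edgeR adjusted p = 0.157). The Cald1 call was lost without any 1 of 9 libraries, among them WT replicates 2 and 3 of day 4 and WT replicates 1 and 2 of day 14.

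With time in culture, Myl9, Tagln, Cnn2, Tpm1 and Tpm2 moved in opposite directions in the 2 genotypes, and Cald1 fell in both. Lmod1 also moved in opposite directions, although its WT values rest on 13 counts at day 14 and 2 at day 4. In KO cells, 8 of 10 members were lower at day 14 than at day 4 and none higher, while 60.9% of all tested genes passed, 30.1% lower and 30.8% higher. By 2-fold or more, 6 were lower, against 10.2% of all tested genes lower and 10.5% higher. In WT cells, 7 were higher and 1 lower, while 74.6% of all tested genes passed, 39.7% higher and 34.9% lower. By 2-fold or more, 5 were higher, against 20.9% of all tested genes higher and 13.4% lower. Median log2 changes over the members were -1.21 in KO and 1.16 in WT, against 0.00 and 0.08 over all tested genes. These comparisons share libraries with those of the genotypes, so they are other views of the same values.

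In KO, Cnn1 fell by 5.05 ± 0.20 on the log2 scale between the days, Myl9 by 3.96 ± 0.10, Tagln by 2.42 ± 0.09 and Lmod1 by 2.24 ± 0.17 (largest edgeR adjusted p = 2.15e-08). Tpm2 fell by 1.27 ± 0.12, Tpm1 by 1.15 ± 0.05, Cnn2 by 0.74 ± 0.07 and Cald1 by 0.40 ± 0.04 (largest edgeR adjusted p = 9.84e-07). Mylk, at 58.2 ± 1.51 CPM at day 14 and 55.3 ± 2.70 CPM at day 4, did not pass in KO (edgeR adjusted p = 0.513), nor did Smtn (edgeR adjusted p = 0.593).

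In WT, Myl9 rose by 4.48 ± 0.35, Cnn2 by 2.14 ± 0.07, Tpm2 by 2.0025 ± 0.13, Mylk by 1.34 ± 0.11, Tagln by 0.98 ± 0.15 and Tpm1 by 0.36 ± 0.05 (largest edgeR adjusted p = 1.74e-05). Without WT replicate 1 of day 4 the Myl9 change was 5.40. The WT rise of Myl9 took it to only 4.30 ± 0.837 CPM at day 14, against 0.164 ± 0.142 CPM at day 4. The Lmod1 ratio of day 14 to day 4 in WT was 10.7 (95% counting interval 2.42 to 97.7), or at least 4.54-fold against 3 counts without WT replicate 2 of day 4. Its call was lost without WT replicate 2 of day 14 (edgeR adjusted p = 0.0668). The WT libraries of the 2 days overlapped for Lmod1, since replicate 1 had 0 counts at both days. Cald1 was lower at day 14 by -0.56 ± 0.04 (edgeR adjusted p = 1.09e-08), as in KO. Cnn1 and Smtn did not pass in WT (edgeR adjusted p = 0.909 and 0.138).

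**Figure D3:**
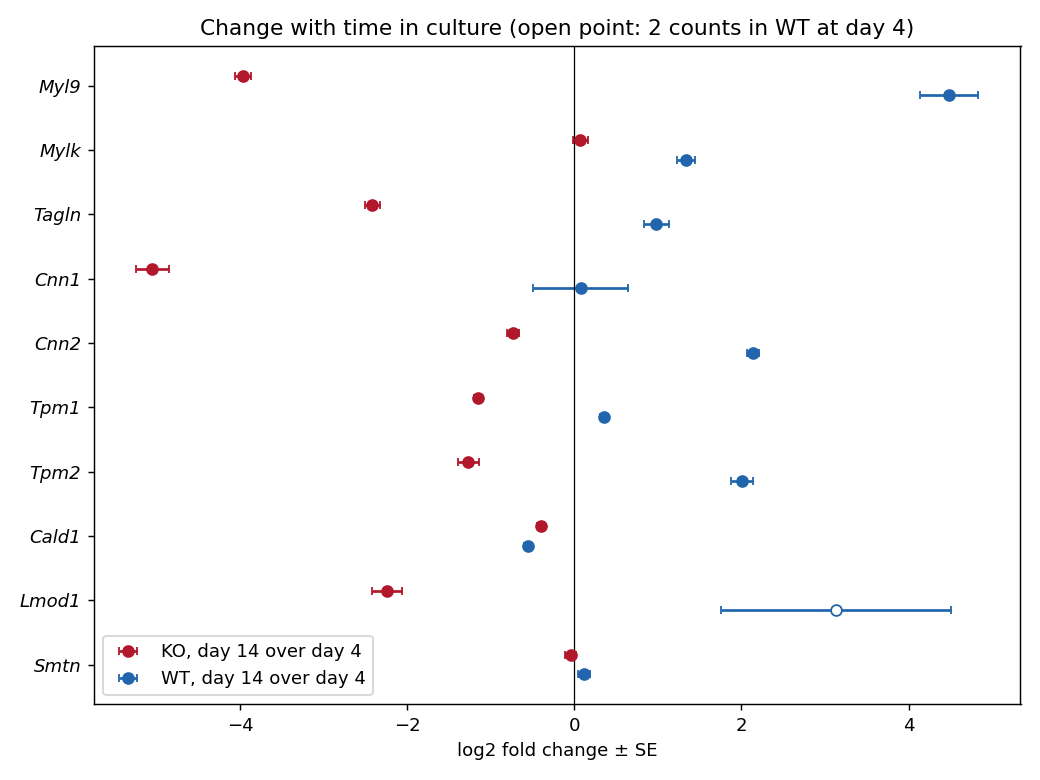
log2 fold change ± SE of day 14 over day 4, in KO (red) and WT (blue), for each gene; the open point marks a gene with 2 counts in WT at day 4. Red and blue lie on opposite sides of 0 for Myl9, Tagln, Cnn2, Tpm1, Tpm2 and Lmod1, as with Myl9 at -3.96 in KO and 4.48 in WT, and on the same side for Cald1.

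The summed level of the 10 genes shows how these changes add up. It was 2819.4 to 2834.2 CPM in KO and 1223.4 to 1265.5 CPM in WT at day 4, a ratio of means of 2.28. At day 14 it was 1313 to 1345.4 CPM in KO, 1073 to 1171.1 in HET and 1246.9 to 1343.9 in WT. The KO and WT ranges overlap at day 14, where Cald1, Tpm1, Cnn2 and Tpm2 hold most of the sum.

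Per kb of annotated exon, which allows levels of different genes to be compared, Myl9 led the members in KO at day 4, at 412.5 ± 6.35 CPM per kb, followed by Tpm2 at 151.4 ± 2.34 and Cnn2 at 124.4 ± 1.55. In WT at day 4 Myl9 ranked 8 of 10 at 0.141 ± 0.122, and Cald1 at 74.98 ± 1.64 and Tpm1 at 34.8 ± 0.391 led. At day 14 Cnn2 led in all genotypes, at 74.5 ± 0.713 in KO, 49.7 ± 7.06 in HET and 85.5 ± 4.36 in WT, while Lmod1 and Cnn1 were the 2 lowest in each. In HET the levels of Cnn2, Cald1 and Tpm1 differed by less than the spread of Cnn2 (SD, n = 3). Exon length sums over all annotated exons of a gene and exceeds that of any 1 transcript, so genes with many isoforms, such as Cald1, are understated.

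Set within their families, Cnn1 stood below Cnn2 and Cnn3 in every group, and Tagln below Tagln2. Per kb of exon, Cnn1 stood at 40.2 ± 0.732 CPM in KO at day 4 beside 124.4 ± 1.55 for Cnn2 and 105.6 for Cnn3, the calponin of nonmuscle cells. In WT at day 4 Cnn1 was at 0.118 ± 0.0724, beside 19.5 ± 0.151 for Cnn2 and 118 for Cnn3. Tagln was at 48.7 ± 1.17 in KO and 0.863 ± 0.0526 in WT at day 4, and its broadly expressed paralog Tagln2 at 134.3 in KO and 71.3 in WT. Tpm4, a nonmuscle tropomyosin, stood above Tpm1, Tpm2 and Tpm3 in every group, at 545.6 in KO and 312 in WT at day 4. Tpm1 stood above Tpm3 in every group, and Tpm2 did so in all but WT at day 4.

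The regulatory light chains show the widest shift within a family. In KO at day 4 Myl9, at 412.5 CPM per kb, stood above its nonmuscle counterparts Myl12a at 200.4 and Myl12b at 35.4. In the other 4 groups it was below both, at 26.4 in KO, 2.26 in HET and 3.70 in WT at day 14 and 0.141 in WT at day 4. Myl12a rose in KO at day 4 by 0.98 ± 0.09 (edgeR adjusted p = 1.57e-07), and Myl12b, at -0.09 ± 0.08, did not pass (edgeR adjusted p = 0.335).

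**Figure D4:**
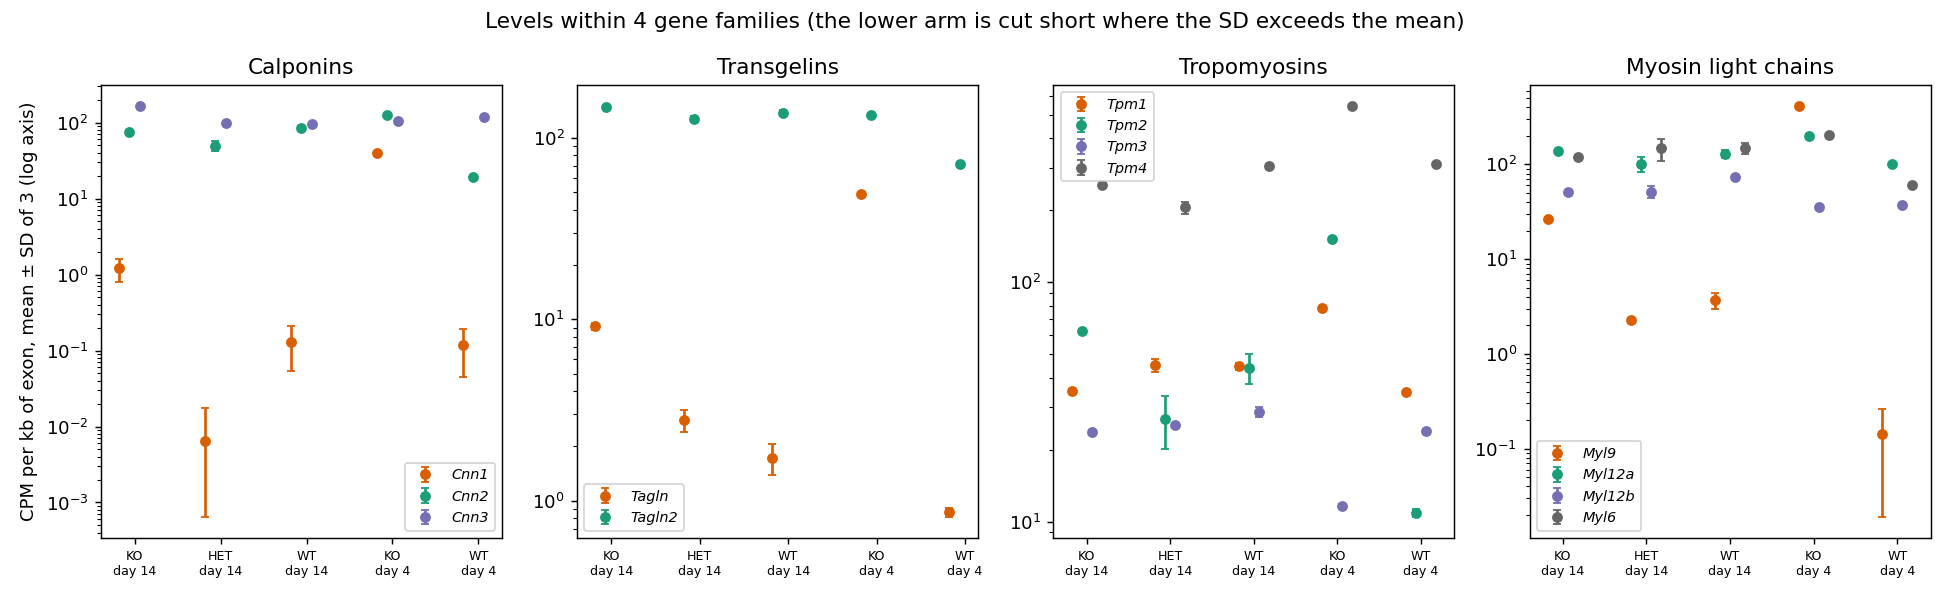
Level per kb of exon in 4 gene families, as CPM per kb on a log axis, mean ± SD of 3 libraries; colours are genes of the family and the lower arm is cut short where the SD exceeds the mean. Myl9 is the highest light chain in KO at day 4, at 412.5, and Tpm4 is the highest tropomyosin in every group.

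By group means, heterozygous cells of day 14 lay between KO and WT in Mylk, Tagln and Lmod1, and outside that range in the other members. The share of all tested genes outside that range was not computed. KO and WT were themselves close in Cald1, Smtn, Cnn2 and Tpm1. Against WT, 2 members were higher in HET and 6 lower, while 58.3% of all tested genes passed, 28.3% higher and 29.9% lower. By 2-fold or more, none was higher and only Cnn1 lower, against 7.33% and 11.5% of all tested genes. Fitted to HET and WT of day 14 alone, 3 members were lower, Myl9, Cnn2 and Tpm2, while Cnn1 was under the filter and the calls of Cald1 and Smtn were lost. Calls over all genes were fewer in that fit too, with 3354 higher and 3342 lower of 14024 tested, against 4330 and 4580 of 15296. In the fit to all libraries, the median log2 change over the members was -0.19, against -0.02 over all tested genes (edgeR's quasi-likelihood test, adjusted p under 0.05). Against HET, KO cells had 8 members higher and 1 lower, while 59.5% of all tested genes passed, 29.4% higher and 30.1% lower. By 2-fold or more, 6 were higher and none lower, against 9.93% and 9.01% of all tested genes. Both comparisons use the HET libraries, and the first shares its WT libraries with the comparison of KO and WT.

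Mylk and Tagln were the 2 members with HET between the other genotypes in both tests. Mylk stood at 31.0, 24.3 and 29.6 CPM in HET, higher than in WT by 0.67 ± 0.10 (edgeR adjusted p = 3.67e-05), and KO was above HET by 1.04 ± 0.10 (edgeR adjusted p = 1.68e-07). Tagln stood at 4.69, 5.63 and 6.27 CPM in HET, higher than in WT by 0.70 ± 0.13 (edgeR adjusted p = 3.09e-04), and KO was above HET by 1.71 ± 0.11 (edgeR adjusted p = 2.02e-09). For these genes the 3 genotypes did not overlap in any library.

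For Myl9, Cnn1, Cnn2, Tpm2 and Smtn, HET cells held less than both KO and WT cells. Myl9 stood at 2.59, 2.63 and 2.66 CPM in HET, lower than in WT by -0.71 ± 0.17 (edgeR adjusted p = 0.00188). Cnn1 had 0, 1 and 0 counts in the HET libraries, against 8, 3 and 12 in WT, and the ratio of KO to HET was 206 (95% counting interval 36.6 to 8170). Without HET replicate 2 there was no count left, and KO was at least 47.6-fold higher against a floor of 3 counts over the remaining HET libraries. Cnn2 stood at 112.6, 142.4 and 112.1 CPM in HET, lower than in WT by -0.78 ± 0.07 (edgeR adjusted p = 2.07e-07). Tpm2 stood at 65.0, 100.4 and 68.2 CPM in HET, lower by -0.71 ± 0.13 (edgeR adjusted p = 2.03e-04). In Cnn2 and Tpm2 the high HET library is replicate 2, the one that stood apart, and without it the changes against WT were -0.91 and -0.93. Smtn, at 23.4 ± 1.30 CPM in HET and 27.6 ± 1.35 CPM in WT, was lower by -0.24 ± 0.07 (edgeR adjusted p = 0.00913), a call lost in the fit to HET and WT alone (0.0928) and without the filter on low counts (0.134).

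Tpm1 and Lmod1 did not differ between HET and WT by the test (edgeR adjusted p = 0.88 and 0.602), at 291.3 ± 17.2 and 0.273 ± 0.0389 CPM in HET and 289.4 ± 9.50 and 0.202 ± 0.176 CPM in WT. KO was lower than HET in Tpm1 by -0.35 ± 0.05 (edgeR adjusted p = 1.21e-05) and higher in Lmod1 by 4.56 ± 0.47 (edgeR adjusted p = 1.02e-08). Cald1 averaged 557.9 ± 10.5 CPM in HET and was lower than in WT by -0.14 ± 0.04 (edgeR adjusted p = 0.0135), a call lost without WT replicate 3 (0.0844), in the fit to HET and WT alone (0.22) and without the filter (0.166).

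Other genes of the smooth muscle programme were higher in KO at day 4 too. Of 17 further genes listed for this cell type, 14 were tested, and 14 were higher at day 4, against 35.7% of all tested genes, with a median log2 change of 2.19. At day 14, 8 were higher and 2 lower, against 30.9% and 32.2% of all tested genes, with a median of 0.54. The list was drawn up with earlier results of these data known. Acta2, the smooth muscle actin, stood at 2116 ± 10.1 CPM in KO and 0.439 ± 0.133 CPM in WT at day 4 and at 488.6 ± 12.6 CPM in KO, 74.96 ± 7.45 in HET and 25.9 ± 0.786 in WT at day 14 (SD, n = 3 each). The LIM protein gene Fhl1 rose by 3.31 ± 0.08 at day 4 and 2.38 ± 0.09 at day 14. At day 14 Ppp1r14a, an inhibitor of myosin phosphatase, was lower by -2.53 ± 0.42 and the LIM protein gene Csrp1 by -0.16 ± 0.06 (largest edgeR adjusted p of these 4 changes = 0.0303). At day 4 both were higher in KO, Ppp1r14a by 5.59 ± 0.71 over 7 WT counts and Csrp1 by 1.39 ± 0.06 (largest edgeR adjusted p = 4.36e-08). Myh11, Pln and Kcnmb1 were too low to test: no group held more than 16 counts of Myh11, 14 of Pln or 4 of Kcnmb1.

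Of 17 paralogs of the members, 12 were tested. At day 4, 6 were higher and 4 lower in KO, against 35.7% and 33.8% of all tested genes. At day 14, 3 were higher and 7 lower, against 30.9% and 32.2%. Median log2 changes were 0.36 at day 4 and -0.39 at day 14. Tagln2 rose by 0.91 ± 0.05 and Tpm4 by 0.81 ± 0.05 at day 4, where Tpm3 was lower by -1.05 ± 0.05 and the pointed-end capping gene Tmod3 by -0.92 ± 0.06 (largest edgeR adjusted p = 2.55e-09). At day 14 Cnn3 rose by 0.78 ± 0.05 and Tmod1 by 3.24 ± 0.48, while Tmod2 was lower by -4.76 ± 0.44 and Tmod3 by -0.57 ± 0.06 (largest edgeR adjusted p = 1.18e-05). Tpm4 and Cnn3 had the opposite sign at the other day, Tpm4 at -0.27 ± 0.05 at day 14 and Cnn3 at -0.16 ± 0.05 at day 4 (largest edgeR adjusted p = 0.0104). The calponin genes thus differed in direction at both days, with Cnn3 alone lower in KO at day 4 and Cnn2 alone lower at day 14 in the fit to all libraries.

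Of 15 genes of nonmuscle myosin and of the control of contraction, all tested, 7 were higher and 5 lower in KO at day 4, and 5 were higher and 5 lower at day 14. These counts are near the shares of all tested genes, 35.7% and 33.8% at day 4 and 30.9% and 32.2% at day 14, and the medians were 0.08 and 0.04. The essential light chain Myl6 rose by 1.77 ± 0.13 at day 4, where the small GTPase gene Rhob was lower by -0.59 ± 0.06 and Ppp1cb, the catalytic subunit of myosin phosphatase, by -0.32 ± 0.05. At day 14 the nonmuscle myosin Myh9 rose by 1.12 ± 0.10 and Rock2, a kinase that blocks myosin phosphatase, by 0.95 ± 0.09, while the calmodulin gene Calm3 was lower by -0.60 ± 0.07 and Ppp1cb by -0.33 ± 0.05 (largest edgeR adjusted p of these 7 changes = 3.14e-05). On the other day Myl6 was lower in KO by -0.33 ± 0.13 and Rock2 by -0.20 ± 0.08 (largest edgeR adjusted p = 0.0488). Myh9 stood higher in KO at day 4 too, at 1281 ± 14.7 CPM against 511.7 ± 8.38 CPM in WT (SD, n = 3 each).

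Of 14 transcription factors listed for the programme, 13 were tested. At day 4, 3 were higher and 6 lower in KO, where 35.7% and 33.8% of all tested genes were. At day 14, 7 were higher and 2 lower, where 30.9% and 32.2% of all tested genes were. Their median log2 changes were -0.49 at day 4 and 0.36 at day 14. Srf stood at 109.8 ± 2.61 CPM in KO and 63.4 ± 2.43 CPM in WT at day 4, a rise of 0.79 ± 0.05 (edgeR adjusted p = 5.73e-10), and at 92.0 ± 3.28 CPM in KO and 90.6 ± 1.35 CPM in WT at day 14 (edgeR adjusted p = 0.7). Myocd had 2 counts over the KO libraries and 18 over the WT libraries of day 4, and 4, 13 and 13 over those of KO, HET and WT at day 14. Elk1, a cofactor of Srf in growth factor responses, rose by 0.61 ± 0.10 at day 4. Its relative Elk4 was higher by 0.45 ± 0.06 at day 14 and lower by -0.56 ± 0.06 at day 4.

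Klf4, known to repress smooth muscle genes, was higher in KO by 2.07 ± 0.11 at day 14 and lower by -0.49 ± 0.10 at day 4. Gata6 was higher by 0.48 ± 0.10 at day 14 and lower by -2.22 ± 0.11 at day 4. The homeobox gene Prrx1 was lower by -1.92 ± 0.08 at day 4 and -2.12 ± 0.09 at day 14, and Nkx2-3 had a WT to KO ratio of 211 at day 14 (95% counting interval 71.8 to 1030). The largest edgeR adjusted p of the changes given for these factors, Elk1 and Elk4 included, was 6.52e-04.

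**Figure D5:**
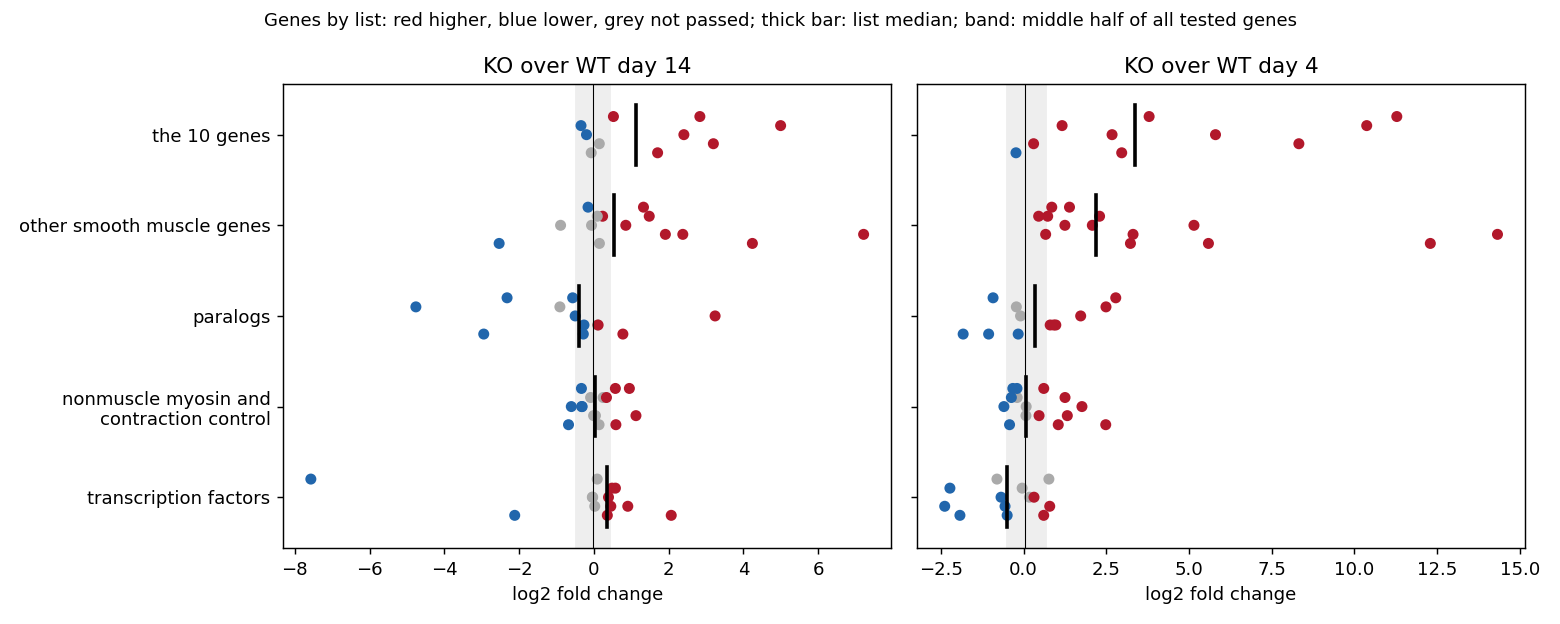
log2 fold change of KO over WT at both days for the 10 genes and 4 related lists; points are genes (red higher, blue lower, grey not passed), thick bars are list medians and the band runs between the quartiles of all tested genes. The 10 genes have medians of 1.11 at day 14 and 3.38 at day 4, and the transcription factors 0.36 and -0.49.

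Markers of other contractile or vascular cells were set beside these results. None of 8 skeletal muscle markers passed the filter, and Myod1 was at 0 counts in KO at both days. Of 7 cardiac markers 2 were tested, and all 7 together summed to 1.46 to 1.96 CPM in KO and 0.590 to 0.869 CPM in WT at day 4. At day 14 their sums were 1.03 to 1.31 CPM in KO and 1.30 to 1.59 CPM in WT, with the higher mean in WT. The summed level of 7 pericyte markers was 351.7 to 359.4 CPM in KO and 74.5 to 77.3 CPM in WT at day 4, and 47.7 to 54.4 CPM in KO and 137.4 to 168.8 CPM in WT at day 14. Of the 4 pericyte markers tested, Pdgfrb and Notch3 were higher and Cspg4 lower in KO at day 4, while Rgs5 was at 0 counts in both groups. At day 14, 2 were lower and none higher, against 32.2% and 30.9% of all tested genes. The shares at day 4 were 33.8% lower and 35.7% higher. The summed level of 7 fibroblast markers was 1074.5 to 1079.7 CPM in KO and 913.2 to 927.9 CPM in WT at day 4, and 1169.6 to 1202.4 CPM in KO, 2681.6 to 2910 in HET and 1572.7 to 1662.9 in WT at day 14. Its genes went opposite ways: at day 4 Col1a1 was higher in KO by 2.84 ± 0.06 and Dpt by 6.08 ± 0.74, while Dcn was lower by -4.58 ± 0.07 and Pdgfra by -0.97 ± 0.08. The Dpt change rests on 4 counts over the WT group. At day 14 Col3a1 was higher by 0.52 ± 0.05 and Pdgfra by 0.66 ± 0.08, and Dcn was lower by -3.57 ± 0.06 (largest edgeR adjusted p of these 7 changes = 4.83e-06). Macrophage markers, 6 in all, summed to 39.2 to 42.0 CPM in KO and 8.37 to 8.87 CPM in WT at day 14, with Adgre1 at 0 counts in KO. Cd68 made up most of that sum, at 37.88 CPM in KO and 6.28 CPM in WT, while Csf1r was lower in KO by -3.28 ± 0.80 (edgeR adjusted p = 3.34e-04). The Csf1r change rests on 4 counts over the KO group. Endothelial markers, also 6, summed to 1.35 to 1.95 CPM in KO and 11.5 to 15.02 CPM in WT at day 4. Kdr and Cdh5 held most of the WT sum, at means of 9.24 and 3.28 CPM. Pecam1 and Vwf averaged 0.294 and 0.836 CPM in KO and 0.203 and 0.605 CPM in WT. At day 14 the sums overlapped, at 3.29 to 4.86 CPM in KO and 3.69 to 4.91 CPM in WT. The part of these markers in the changes of the contractile genes was not tested.

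Across the 15 libraries, Myl9, Tagln, Cnn1, Lmod1 and Tpm2 had similar patterns, with Pearson's r of log2 CPM of 0.82 to 0.98 over their 10 pairs. Cald1 stood apart, with r from -0.52 to 0.32 against the other 9 genes. The 15 libraries are 5 groups of 3, so each r rests mainly on 5 group levels. Outside the list, the genes most like Tagln were Cpne2 (r = 0.98), Gpd1l (0.98) and the smooth muscle actin Actg2 (0.97). Those most like Myl9 were Pcx (0.99), Wdr1 (0.99) and Atxn10 (0.98), and those most like Cnn1 included Clca2 (0.98) and Gm14124 (0.98). Wdr1, which helps cofilin take actin filaments apart, averaged 546.3 ± 1.74 CPM in KO and 179.4 ± 4.73 CPM in WT at day 4, and 391.1 ± 7.51 in KO, 245.7 ± 13.1 in HET and 291.6 ± 3.17 in WT at day 14. It ranks the 5 groups in the same order as Myl9, over a far narrower range.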

How the data were processed

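RNA from 15 samples was sequenced after TruSeq v2 library preparation, per the labels' protocols. The authors deposited raw counts per gene for each sample. Per the submitters' processing notes, TopHat2 2.1.0, HTSeq, DESeq2 and GRCm38.p4 were used; the annotation release, strand setting and other versions were not given in the labels. GENCODE M21, also on GRCm38, gave symbols to 46091 of 46603 IDs. Groups and replicate numbers come from the labels.

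Counts were tested with edgeR 4.0.16 (R 4.3.3): filterByExpr, TMM scaling, robust quasi-likelihood fit to all 15 libraries, and Benjamini-Hochberg adjustment over 15296 genes in each of 7 comparisons, threshold 0.05. The common coefficient of variation was 8.33%. SEs are Wald SEs with variance never below counting error. Groups of 1 to 3 counts are given as ratios with exact binomial intervals. The pipeline was tested on simulated data. Alternatives were DESeq2 1.42.0, RLE scaling, 2 other filters, fits to the compared groups, the replicate block and each library left out. Named were all members, up to 2 higher and 2 lower genes per list and day with the smallest p, and Acta2, Myh11, Srf and Myocd; Pln, Kcnmb1, the genes of the family comparison and the markers were named after their values were seen. Some genes the rule names are not reported here. Members and lists were chosen with earlier results of these data known. In GENCODE transcripts, 3 members (Tagln, Smtn and Mylk) share a stretch of 50 bases with another gene.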

Additional observations from a re-analysis of the deposited data

Results flagged for a closer look

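The effect of the knockout differed between day 14 and day 4 for 9 of the 10 genes by the interaction test of edgeR (adjusted p under 0.05). The difference of the log2 changes, day 14 minus day 4, was -8.45 for Myl9, -1.26 for Mylk, -3.40 for Tagln, -5.13 for Cnn1, -2.87 for Cnn2, -1.51 for Tpm1, -3.27 for Tpm2, 0.16 for Cald1 and -5.38 for Lmod1. Among all tested genes, 64.7% passed this test in either direction. Leaving out WT replicate 1 of day 4 moved the value of Myl9 to -9.37, and leaving out WT replicate 2 of day 4 moved that of Cnn1 to -5.72. The value of Lmod1 rests on 2 counts in WT at day 4, both in replicate 2. Over the fits with 1 library left out it ran from -7.67 to -4.72. Without WT replicate 2 of day 4, WT held 0 counts at that day, so that fit has no measured WT level behind it.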

How the results depend on the processing

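Of 896 member values recomputed under the alternatives, 874 kept their direction and their side of the threshold, 22 lost a call and none was reversed. The lost calls were those of Cald1 in the interaction (10), Cnn2 in KO against WT at day 14 (6), Cald1 (3) and Smtn (2) in HET against WT, and Lmod1 in WT over time (1). Without the filter on low counts, 1 member instead of 2 was lower in KO than in WT at day 14, and leaving out single libraries gave 1 to 2. With a filter of 1 CPM in 3 samples no member had a positive interaction, against 1, and leaving out single libraries gave 0 to 1. Fitted to HET and WT of day 14 alone, 3 members were lower in HET, against 6. In that fit 3342 of all 14024 tested genes were lower, against 4580 of 15296. The cause was not tested. With the replicate block no member call changed, and 9 and 6 members were higher in KO at days 4 and 14. Replicate numbers are no sign of pairing here: deviations from the group means correlated at -0.15 to 0.18 over 30 same-numbered pairs, with 1 above 0.1. Members of few counts, Lmod1, Cnn1 and Myl9 in WT at day 4, set the depth limit.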
